A study of Mus musculus with 24 samples.

Results

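The genes described here are the protein-coding genes of the histone clusters of the mouse: every gene whose GENCODE M21 symbol begins with Hist1h, Hist2h, Hist3h or Hist4h. They are 67 of the 55177 genes in the tables. On build GRCm38, 54 of them lie in the Hist1 cluster on chromosome 13 (21715763 to 23934851), 10 in the Hist2 cluster on chromosome 3 (96219865 to 96270132), 2 in the Hist3 cluster on chromosome 11 (58948920 to 58956830), and 1, Hist4h4, on chromosome 6 (136801553 to 136804415). By the histone they encode, 6 are H1 genes, 18 H2A, 18 H2B, 12 H3 and 13 H4.

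RNA was sequenced in 24 libraries of primary cortical neurons from embryonic day 16.5 mice, and per the labels' protocol the cortex of each embryo was a biological replicate. The study asked how the BAF chromatin remodelling complex, and serine phosphorylation of its subunit Smarcc2, bear on gene expression in resting and depolarized neurons. All cultures, depolarized ones included, were first silenced overnight with the sodium channel blocker tetrodotoxin (1 µM) and the NMDA receptor blocker D-AP5 (100 µM), and 50 mM KCl was then given for 30 min to the depolarized ones. The day 7 in vitro (DIV7) groups were unmodified cells given 0.1% DMSO, at rest (2 libraries) or with KCl (2). The day 18 (DIV18) groups carried CRISPR guides and constructs. NT cells had a non-targeting guide (2 at rest, 2 with KCl). VEC cells had the Smarcc2 knockout guide and an empty vector (3 and 3). WT cells had the knockout guide and wild-type Smarcc2 added back (2 and 3). S586E cells had the knockout guide and Smarcc2 S586E (3, at rest only), and S586A cells the knockout guide and Smarcc2 S586A (2, with KCl only). Poly(A) selection was used at DIV7, and total RNA depleted of ribosomal RNA at DIV18. Library type, age and constructs therefore cannot be told apart between DIV7 and DIV18, and tests were run only within each.

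The DIV7 libraries held 24536056 to 30135576 estimated counts each, and the DIV18 libraries 14510199 to 24024959. The targeted gene, Smarcc2, passed the test in all 6 comparisons of VEC with NT or of an addback construct with VEC, lower in VEC each time. The depolarization marker Fosb passed in all 4 comparisons of KCl with rest, higher each time. Fos, the other such marker, passed at DIV7 and in VEC and WT cells, higher each time, and did not pass in NT cells. All 9 neuron markers had counts in every library, with summed levels of 3984 to 6121 CPM (counts scaled to 1000000 per library after TMM normalisation). Microglia markers summed to 1.73 to 8.92 CPM, with up to 3 of 6 at 0. Some libraries stood apart within their group. VEC KCl library 3 had a mean fragment length of 193.53 bases, against 173 to 183 for the other KCl libraries at DIV18, and NT resting library 2 had the highest summed level of the 10 mitosis markers, 38.9 CPM. NT KCl library 2 had 26.5 CPM of these markers against 8.29 CPM in its replicate. VEC resting library 3 had 17.6 CPM of the 5 neural progenitor markers, against 48.6 and 49.8 CPM in the other resting VEC libraries. Fos was uneven among the KCl libraries, with 113 and 38.5 CPM in NT, 101, 111 and 51.2 CPM in VEC, and 197, 106 and 32.7 CPM in WT.

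Clustered histone genes encode the bulk histones that package newly copied DNA, and in dividing cells they are transcribed mainly in S phase. H2A, H2B, H3 and H4 form the core of the nucleosome, and H1 binds the linker DNA between nucleosomes. Their mRNAs usually end in a conserved stem-loop bound by Slbp in place of a poly(A) tail, so poly(A) selection misses most of them. Neurons no longer divide, yet some of these genes are known to give polyadenylated transcripts in differentiated cells, beside the replication-independent variants such as those encoded by H3f3a, H3f3b and H1f0.

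The stem-loop stands in place of a poly(A) tail, and it is shown because the library types differ in whether they select that tail. A motif of 16 bases was searched on the transcript strand of each annotated model, made of the letters that the forms shown here have in common and any base where they differ. It stood in 42 of the 67 members (44 of their 75 transcripts) and in 3 of 58661 other coding transcripts (0.00511%). The 5 forms found are given below 5′ to 3′, with the arms of the stem in capitals and the loop in lower case.
Form in 26 H1, H2A, H2B and H3 genes: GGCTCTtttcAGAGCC
Form in 7 H4 genes: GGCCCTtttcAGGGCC
Form in 6 H1, H2B and H3 genes: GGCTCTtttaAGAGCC
Form in Hist1h4i and Hist2h4: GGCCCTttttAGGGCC
Form in Hist2h2ac: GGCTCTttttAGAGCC
The arms with CCC and GGG stood only in H4 genes among the 42. In the other 25 members these letters were not in the annotated model. In 21 of the 42, an annotated transcript ran on for at least 100 bases past the stem-loop, and in the other 21 it ended sooner.

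Promoters of 61 members were matched in RefSeq (GRCm38.p6, 250 bases before to 50 after the start). The octamer ATTTGCAT, searched on both strands, stood in 13 of the 61 (21.31%), against 1.735% of all 32851 promoters of that length. All 13 were H2A or H2B genes: 7 of 18 H2A and 6 of 16 H2B promoters. CCAAT, on either strand, stood in 85.25% of the member promoters and 37.41% of all, and TATAAA in 55.74% and 13.62% (no motif overlaps another in the sequence printed here). Among neighbouring members, 13 pairs were transcribed away from each other with under 1000 bases between their starts. One of these pairs, Hist1h2ah on the minus strand and Hist1h2bk on the plus strand, lies 301 bases apart, and both genes passed the test in a comparison described further on. The promoter of Hist1h2bk covers nearly all of that interval, on the plus strand at chr13:22035571-22035870, with all 3 motifs, read on either strand, in capitals.
Hist1h2bk promoter: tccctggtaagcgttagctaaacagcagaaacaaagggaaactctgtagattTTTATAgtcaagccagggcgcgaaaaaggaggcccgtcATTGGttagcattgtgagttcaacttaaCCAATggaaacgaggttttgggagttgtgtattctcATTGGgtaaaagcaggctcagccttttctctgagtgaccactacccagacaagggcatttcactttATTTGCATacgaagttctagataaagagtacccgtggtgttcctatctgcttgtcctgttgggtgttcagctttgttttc
Read from the Hist1h2bk side, the octamer is the motif nearest to its start; the letters are a description and no binding was measured.

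In the poly(A) libraries of DIV7 the histone RNA came from few genes. The members together held 307.2 to 318.1 library-scaled counts, that is estimated counts per 1000000 of the library total (0.0307% to 0.0318% of it), and the 8 most abundant held 86.1% to 86.9% of that. By class, H2A genes held 39.6% to 44.4%, H2B genes 32.0% to 37.0%, H1 genes 14.2% to 16.6%, H4 genes 3.65% to 4.30% and H3 genes 2.94% to 3.34%. In the total RNA libraries of DIV18 the members held 703.7 to 1255.6 library-scaled counts (0.0704% to 0.126%), the top 8 held 49.2% to 54.0%, and H4 genes held the most, 38.2% to 45.1%. The order of the classes thus differed between the library types, whose ages and constructs also differ.

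**Figure D1:**
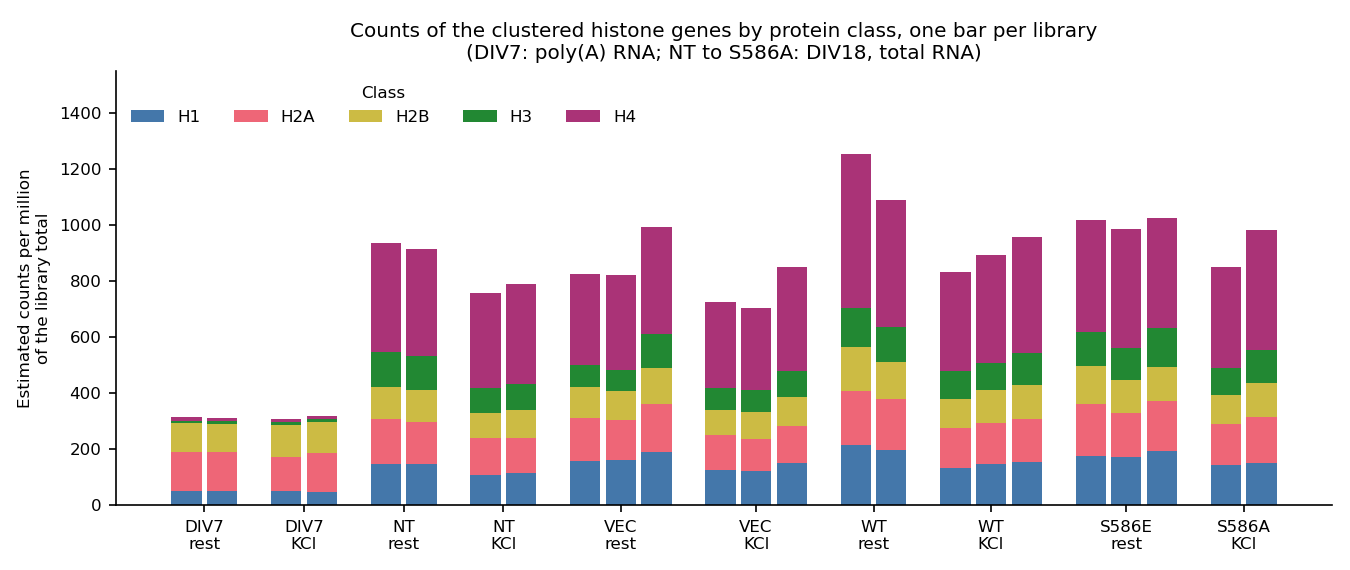
Library-scaled counts of the 67 histone genes (vertical axis) in each of the 24 libraries (horizontal axis), stacked by histone class. The 4 DIV7 poly(A) libraries reach 307.2 to 318.1 with H2A and H2B as the main classes, and the 20 DIV18 total RNA libraries reach 703.7 to 1255.6 with H4 as the main class.

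Between genes, levels were compared per length, as TPM. At DIV7 the highest mean TPM was that of the H2B gene Hist3h2ba, 189, followed by the H2A gene Hist3h2a at 86.9, the H2B gene Hist1h2bc at 84.3, Hist2h2aa2 at 83.1, Hist2h2aa1 at 68.5 and the linker histone gene Hist1h1c at 56.8. The top H4 gene was Hist1h4h at 26.6 TPM and the top H3 gene Hist2h3c2 at 12.2. At DIV18 the order was another one: the H4 genes Hist1h4k (253 TPM) and Hist1h4n (209) led, then the H2B gene Hist2h2bb (98.2), the H3 gene Hist1h3i (82.1), and the H4 genes Hist1h4h (80.3) and Hist1h4d (72.8). That order depends on the annotated lengths. By CPM Hist1h4d (87.7, a model of 1138 bases) stood above Hist1h4n (66.9, 430 bases) and Hist1h4k (46.6, 312 bases). In the DIV7 libraries Hist1h4k had 11.6 TPM, Hist1h4n 5.89, Hist2h2bb 0.157, Hist1h3i 4.87 and Hist1h4d 0.734. In the DIV18 libraries Hist1h2bc had 7.70 TPM, Hist2h2aa2 2.44, Hist2h2aa1 6.98, Hist2h3c2 1.07 and Hist1h2be 2.36 (5.92 at DIV7). Both genes of the Hist3 cluster were among the higher ones in each library type, Hist3h2ba with 46.4 and Hist3h2a with 40.4 TPM at DIV18.

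Grouped by their annotated 3′ ends, the 21 members whose model ran on past the stem-loop had a median of 1.88 TPM at DIV7 and 9.63 at DIV18. The 21 that ended soon after it had medians of 1.24 and 4.88, and the 25 without its letters 0.982 and 13.7. At DIV7, 4, 5 and 2 genes of these groups reached 10 TPM, so the annotated end did not by itself separate the genes seen in poly(A) RNA. Hist1h2bc, the third highest at DIV7 by TPM, has 1 annotated model and no stem-loop letters in it. Many members are near copies: in 14 of 67, under 10% of the 31-base words of the transcripts were found in no other gene, and for Hist2h2aa1, Hist2h2aa2, Hist2h2bb, Hist2h3b and Hist2h3c1 none were. For Hist1h4k and Hist1h4n that share was 13.8% and 12.5%. How the authors' counting split reads among such copies is uncertain. Hist2h2bb shares its words mainly with genes outside the 67, since the member most like it holds 4.56% of them, and its level is uncertain for that reason. Hist2h2aa1 and Hist2h2aa2 summed to 28.5 to 30.1 library-scaled counts at DIV7 and 1.68 to 8.97 at DIV18. Their difference between the library types thus did not rest on the split between these 2. Hist2h2ac, which shares 43.3% of its own words with Hist2h2aa2, was not in that sum. It had a mean of 0.171 CPM at DIV7 and 7.77 CPM at DIV18. The sum therefore does not settle a split with other genes.

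**Figure D2:**
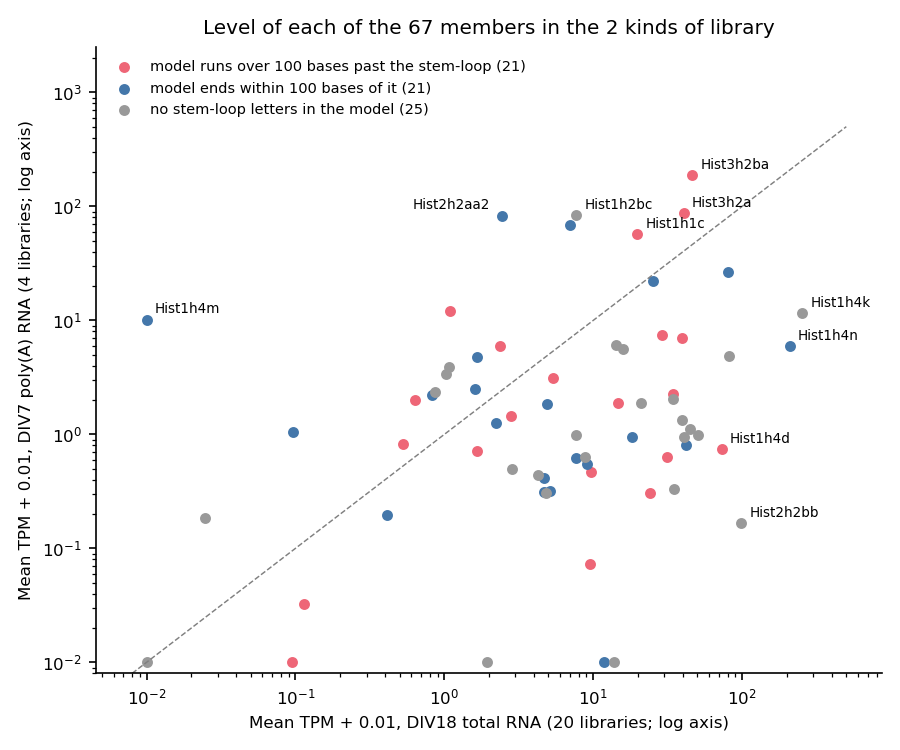
Mean TPM + 0.01 of each of the 67 histone genes in the 20 DIV18 total RNA libraries (horizontal log axis) against that in the 4 DIV7 poly(A) libraries (vertical log axis), coloured by annotated 3′ end; the dashed line marks equal levels. Hist2h2aa2, Hist1h2bc, Hist1h1c, Hist3h2a and Hist3h2ba lie above the line, and Hist1h4k, Hist1h4n, Hist1h4d and Hist2h2bb below it.

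In DIV7 neurons, 1 histone gene fell after 30 min of KCl and none rose past the test. It was Hist2h4, an H4 gene with a stem-loop (chromosome 3, 96261682 to 96263311, minus strand; ENSMUSG00000091405.2), with 2.14 and 2.01 CPM at rest and 0.946 and 1.02 CPM under KCl. Both resting libraries lay above both KCl libraries. The log2 fold change was -1.08 (SE 0.238, edgeR quasi-likelihood test with Benjamini-Hochberg adjustment, adjusted p = 0.0239). Over 11 alternative settings its adjusted p ran from 0.0043 to 0.155 and passed in 6, and DESeq2 called 0 members. Leaving out any one of the 4 libraries left a lone sample in a group, so those fits cannot settle the call. The log2 fold change of Hist2h4 in them ran from -1.13 to -1.02.

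Of the 67 members, 33 had enough counts to be tested at DIV7, and the single one called compares with 7.34% of all 19822 tested genes called higher and 9.67% called lower. With offsets for each library's trend with GC content, chosen after seeing the data, the calls over all genes numbered 1930 higher and 1605 lower, against 1455 and 1916 without them. At an unadjusted p under 0.05, 5 members were higher and 2 lower, where 14.5% and 17% of all genes were. The libraries of the 2 states did not overlap for 9 members higher and 6 lower, where 28.5% and 30.7% of all genes did not. These shares are near or below the background.

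The abundant members of DIV7 differed little between the states. Hist3h2ba had 40 and 40.2 CPM at rest and 46.1 and 46.6 CPM under KCl, without overlap (log2 fold change 0.21, edgeR adjusted p = 0.0512). Its adjusted p ran from 0.00967 to 0.198 over 11 alternatives and passed in 4. Hist3h2a had 99.1 and 99.4 CPM at rest and 86.4 and 103 CPM under KCl, so the states overlapped. The summed members had 314.4 and 312.7 library-scaled counts at rest and 307.2 and 318.1 under KCl, and the median log2 fold change of the 33 tested members was 0.02, beside a median of 0.00 over all genes tested.

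In DIV18 neurons no histone gene passed the test between KCl and rest, in NT, VEC or WT cells, while most members had a lower mean under KCl in each. With edgeR 0 of 62 tested members were called in each response, where it called 0.00955%, 0.0621% and 0.0382% of all 20940 genes higher, and 0%, 0.00955% and 0.00478% lower, in NT, VEC and WT. DESeq2 called 0, 0 and 6 members, the 6 in WT cells all lower: Hist1h1a, Hist1h1c, Hist1h1d, Hist1h4f, Hist1h4n and Hist4h4.

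At an unadjusted p under 0.05, 7 members were lower and 0 higher in NT cells, against 1.92% and 2.41% of all genes. In VEC cells 19 were lower and 0 higher (4.88% and 5.47% of all genes), and in WT cells 27 were lower and 2 higher (2.03% and 2.93%). The libraries did not overlap for 33 members lower and 2 higher in NT (16.8% and 16.7% of all genes), 16 and 0 in VEC (7.49% and 8.21%), and 35 and 1 in WT (10.4% and 11.3%). Median log2 fold changes of the tested members were -0.29 in NT, -0.35 in VEC and -0.51 in WT, with all-gene medians within 0.02 of 0. Of the 51 members with a mean of at least 1 CPM over the DIV18 libraries, 6, 7 and 1 had a positive log2 fold change. In bulk samples fewer cells of a type and less RNA per cell cannot be told apart.

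Markers of several cell types moved with the state. In VEC cells the summed neuron markers were 4397 to 4634 CPM with KCl and 4773 to 5488 CPM at rest, the astrocyte markers 739 to 868 against 902 to 1251 CPM, and the oligodendrocyte lineage markers 114 to 133 against 134 to 152 CPM, none of them overlapping. There 0 of 9 neuron and 0 of 7 astrocyte markers had a positive log2 fold change. In NT cells 0 of 10 mitosis markers were positive (median -0.76), with sums of 8.29 and 26.5 CPM under KCl and 20.8 and 38.9 CPM at rest. In WT cells the sums of the neuron and astrocyte markers overlapped between the states. No gene of these lists passed the test in the 3 responses, and their part in the histone results was not tested.

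The 3 responses use different libraries. In all 3, 41 of the 62 tested members had a lower mean under KCl (66.1%, against 13.9% of all genes) and 0 had a higher one (14.2% of all genes). For 6 members (9.68%, against 0.363% of all genes) every KCl library lay below every resting library in all 3: the linker histone genes Hist1h1a, Hist1h1d and Hist1h1e, the H3 gene Hist1h3h, the H4 gene Hist1h4f and the H2B gene Hist3h2ba. Hist1h4f was named after its values were seen.

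The summed members had 937.7 and 915.3 library-scaled counts in resting NT libraries and 757.8 and 789.7 with KCl. In VEC libraries they had 825.2, 820.5 and 993.6 at rest and 724.0, 703.7 and 850.2 with KCl, and in WT libraries 1255.6 and 1088.5 at rest and 831.9, 893.0 and 956.7 with KCl. The states did not overlap in NT and WT cells, while VEC KCl library 3 lay above 2 of the resting VEC libraries. WT resting library 1 was the highest of all in library-scaled counts. By summed TPM it had 1775, below WT resting library 2 (1901), S586E resting library 3 (1932) and the resting NT libraries (1878 and 1791). Without WT resting library 1 the median log2 fold change of the members in WT cells was -0.28. Without VEC resting library 3, the highest of its group, the VEC median was -0.18.

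**Figure D3:**
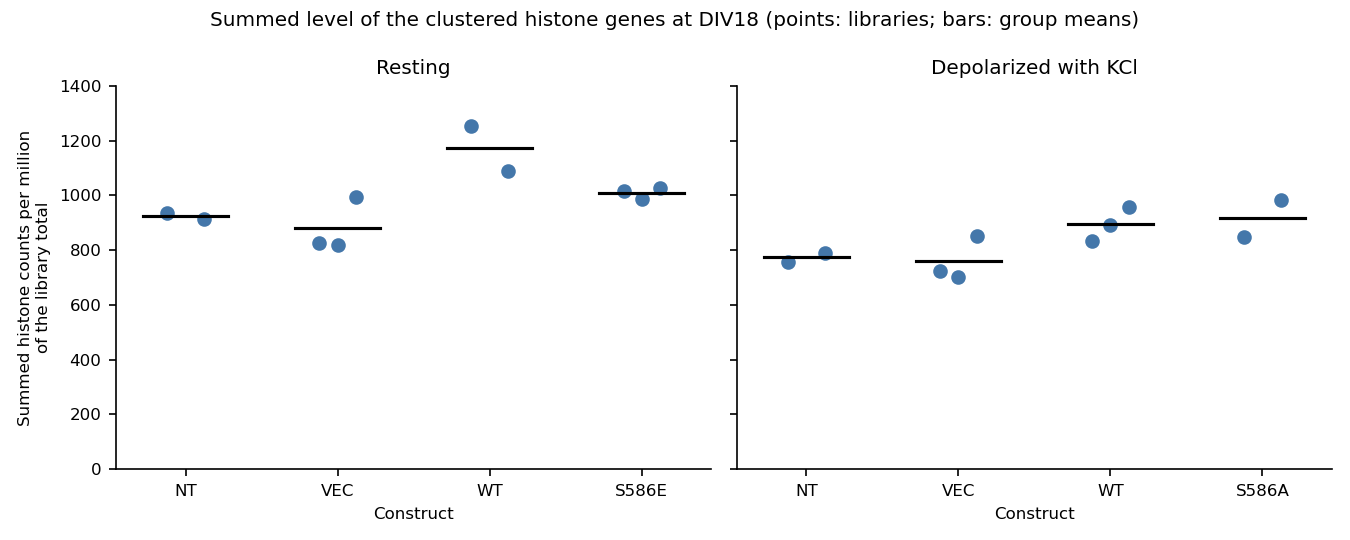
Summed library-scaled counts of the 67 histone genes at DIV18 (vertical axis), 1 point per library, by construct (horizontal axis) and state (panels), with bars at the group means. In NT and WT cells all KCl libraries lie below all resting ones, and resting WT cells hold the 2 highest values, 1255.6 and 1088.5.

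The linker histone genes, H1, had the lowest class median under KCl in NT and WT cells. Of the 5 H1 genes of at least 1 CPM, 0 had a positive log2 fold change in any of the 3 responses, with medians of -0.50 in NT, -0.42 in VEC and -0.65 in WT. The H2B medians were -0.23, -0.44 and -0.38, those of H2A -0.24, -0.36 and -0.61, those of H3 -0.39, -0.21 and -0.54, and those of H4 -0.15, -0.20 and -0.41. In VEC cells H2B was thus the lowest by a small margin. Hist1h1d had the lowest unadjusted p in NT and in WT cells. It had 13.2 and 13.2 CPM in resting NT libraries and 7.44 and 8.11 CPM with KCl (log2 fold change -0.76, SE 0.166, edgeR adjusted p = 0.294; 0.0106 to 1 over 12 alternatives, passing in 1). In WT cells it had 23.7 and 19.7 CPM at rest and 10.6, 15.3 and 14.7 CPM with KCl (-0.68, SE 0.143, edgeR adjusted p = 0.182). Neither pair of states overlapped.

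Hist1h1a had the lowest unadjusted p in VEC cells, with 24.9, 24.4 and 37.8 CPM at rest and 18.7, 18.6 and 22.1 CPM with KCl (-0.55, SE 0.145, edgeR adjusted p = 0.262). Hist1h1e, the most abundant H1 gene of DIV18 by CPM, had 68.7 and 66.2 CPM at rest and 52.2 and 56.8 CPM with KCl in NT cells. It had 75.9, 72.8 and 94.3 against 56.1, 54.7 and 72.5 CPM in VEC cells, and 103 and 87.7 against 62.7, 64.0 and 76.5 CPM in WT cells. In each construct the states were apart, in VEC cells by a narrow margin.

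The core histone genes with the most counts behaved less evenly. Hist1h4d, the most abundant H4 gene by CPM, had 86.1 and 76.1 CPM at rest and 76.6 and 95.3 CPM with KCl in NT cells, so the states overlapped. Hist3h2a overlapped in NT cells too (101 and 90.3 CPM against 93.1 and 80.4), and did not in VEC cells (107, 93.3 and 100 CPM against 81.6, 74.5 and 79.6) or WT cells (125 and 113 CPM against 95.7, 102 and 95.3). Hist1h4n had 106 and 86.2 CPM in resting WT libraries and 55.4, 61.1 and 68.8 CPM with KCl (-0.64, edgeR adjusted p = 0.188).

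**Figure D4:**
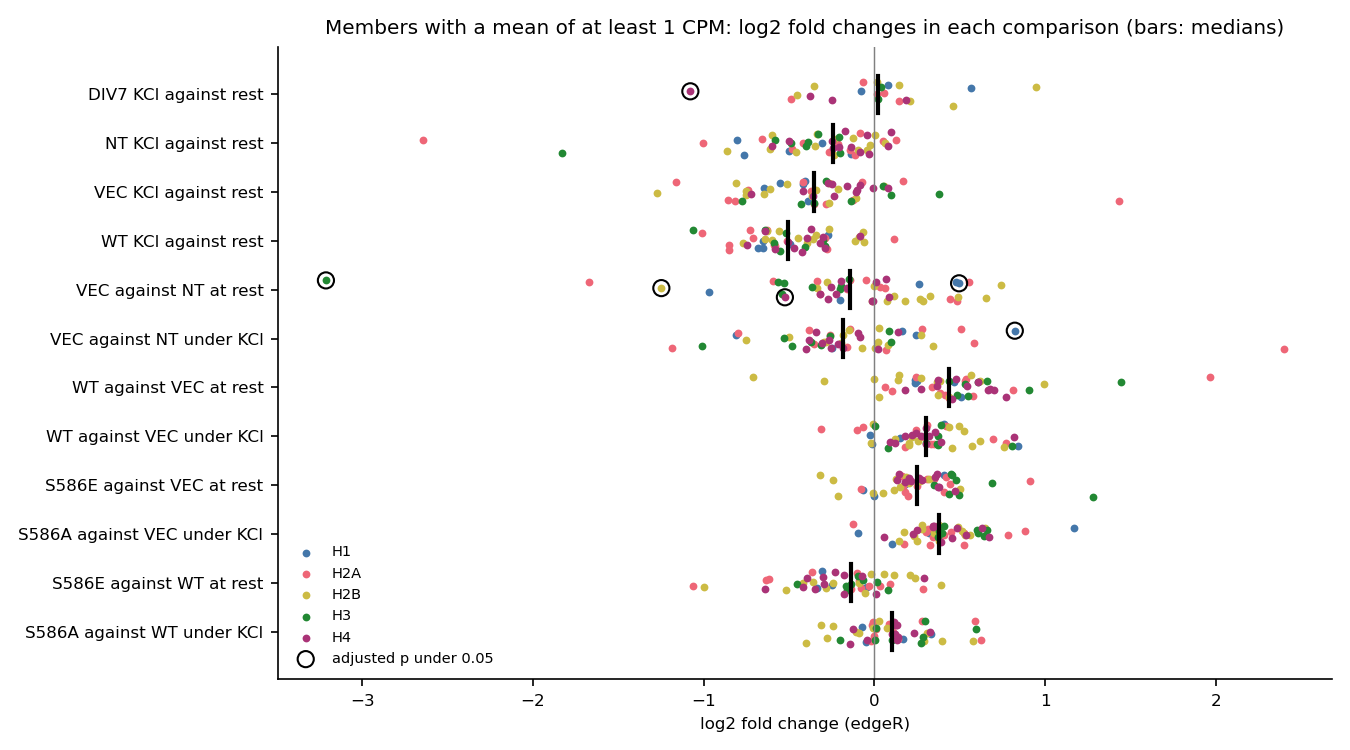
Log2 fold change (horizontal axis) of each histone gene with a mean of at least 1 CPM, 1 point per gene coloured by class, in 12 comparisons; black bars are medians, and circles mark genes that passed the test. Medians under KCl are 0.02 at DIV7, and -0.24, -0.35 and -0.50 in NT, VEC and WT cells of DIV18.

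The difference between the responses was tested as an interaction. With edgeR, 0 of 62 members were called between VEC and NT responses or between WT and VEC responses (0% of all genes in either direction), and DESeq2 also called 0. At an unadjusted p under 0.05, 3 members were higher and 1 lower between VEC and NT (4.38% and 4.43% of all genes), and 2 higher and 3 lower between WT and VEC (1.94% and 1.72%). The lowest p in both belonged to the H3 gene Hist2h3c1, a copy of Hist2h3c2 with counts of 0, 11 and 9 in resting VEC libraries, 0 and 9 in NT KCl libraries and 9, 0 and 20 in WT KCl libraries, too few for a fold change to be read.

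Without Smarcc2, at rest, 1 histone gene rose and 5 fell, out of 62 tested (VEC against NT). Over all genes 2.13% were called higher and 3.77% lower. With GC-trend offsets the calls over all genes were 661 higher and 621 lower, against 446 and 790. The gene that rose was a linker histone gene, and those that fell were 1 H2A, 1 H2B, 2 H3 and 1 H4 gene. At an unadjusted p under 0.05, 4 members were higher and 12 lower (8.92% and 11.4% of all genes), and libraries did not overlap for 7 higher and 17 lower (16.1% and 18.2%).

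The linker histone gene Hist1h1c (chromosome 13, 23738808 to 23740367, plus strand; ENSMUSG00000036181.2), which also gives poly(A) RNA, had 26.3 and 29.9 CPM in NT and 42.2, 38.9 and 37.8 CPM in VEC libraries. All VEC libraries lay above both NT libraries, and the log2 fold change was 0.50 (SE 0.142, edgeR adjusted p = 0.0447). It had 50.9 and 43.5 CPM in resting WT cells and 39.5, 43.4 and 36.1 CPM in S586E cells, all above the NT values. Over 13 alternatives its adjusted p ran from 0.00531 to 0.258 and passed in 7.

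The H3 gene Hist2h3c2 (chromosome 3, 96238108 to 96239127, minus strand; ENSMUSG00000081058.5) had 3.02 and 5.09 CPM in NT and 0.592, 0.317 and 0.382 CPM in VEC libraries (71 and 111 counts against 11, 6 and 6). NT lay far above VEC, and the log2 fold change was -3.21 (SE 0.541, edgeR adjusted p = 0.00231; 1.52e-08 to 0.0598 over 13 alternatives, passing in 12). Its near copy Hist2h3c1 holds 64.2% of its 31-base words. Together they summed to 2.97 and 5.11 library-scaled counts in NT and 0.579, 0.907 and 0.929 in VEC. The groups were thus apart also for this pair. Hist2h3b, which has no words of its own and shares 80.6% of them with Hist2h3c2, was not in that sum. It had 24.1 and 23.2 CPM in NT and 16.9, 11.8 and 20.7 CPM in VEC libraries. The size of the fall in Hist2h3c2 is uncertain for that reason. In the addback cultures the CPM of Hist2h3c2 stayed nearer to VEC, with 1.42 and 0.949 in resting WT and 1.21, 0.737 and 1.25 in S586E libraries.

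The other H3 gene, Hist1h3c (chromosome 13, 23744973 to 23745602, minus strand; ENSMUSG00000069310.4), had 15 and 29 counts in NT and 0, 0 and 1 in VEC libraries. The ratio of NT to VEC, scaled to the library totals, was 51.7, with an exact 95% interval of 8.81 to 2090 that covers counting error only (edgeR adjusted p = 0.0202; 0.000413 to 0.25 over 12 alternatives, passing in 9). NT stood above VEC in every library, at few counts.

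The H4 gene Hist1h4a (chromosome 13, 23760692 to 23761230, minus strand; ENSMUSG00000060093.6) had 23.2 and 22.3 CPM in NT and 14.2, 16.6 and 16.8 CPM in VEC libraries, without overlap. The log2 fold change was -0.52 (SE 0.146, edgeR adjusted p = 0.0408; 0.00788 to 0.243 over 13 alternatives, passing in 5). It had 28.2 and 22.5 CPM in resting WT and 17.9, 20.7 and 18.3 CPM in S586E libraries, above every VEC library.

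Both genes of the divergent pair shown above were lower in VEC. The pair was shown because both passed the test, and shared control was not tested. The H2A gene Hist1h2ah (chromosome 13, 22035164 to 22035568, minus strand; ENSMUSG00000069302.5) had 3.02 and 2.84 CPM in NT and 0.969, 0.369 and 0 CPM in VEC libraries (71 and 62 counts against 18, 7 and 0). Its log2 fold change was -2.66 (SE 0.775, edgeR adjusted p = 0.0493; 5.81e-05 to 0.274 over 13 alternatives, passing in 6). Only 7.47% of its 31-base words were its own, and Hist1h2ad shares 88% of them. Together they summed to 3.33 and 3.68 library-scaled counts in NT and 1.87, 2.06 and 1.04 in VEC, again without overlap. That sum leaves out Hist1h2ai and Hist1h2an, which share 84.8% and 81.5% of their own words with Hist1h2ah. Hist1h2ai had 10.8 and 13.1 CPM in NT and 8.08, 9.87 and 14.3 CPM in VEC libraries, which overlapped. The sum therefore does not settle how reads were split among these copies.

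The H2B gene Hist1h2bk (chromosome 13, 22035870 to 22036345, plus strand; ENSMUSG00000062727.4) had 5.31 and 6.01 CPM in NT and 1.94, 2.06 and 3.18 CPM in VEC libraries. The groups did not overlap, with a log2 fold change of -1.25 (SE 0.347, edgeR adjusted p = 0.0402; 0.0015 to 0.318 over 13 alternatives, passing in 7). It had 4.32 and 5.17 CPM in resting WT libraries, above VEC, and 2.97, 1.78 and 2.40 CPM in S586E libraries, which overlapped VEC. Of its 31-base words, 24.7% were its own and 67.9% are shared with Hist1h2br. Hist1h2br had 4.84 and 5.55 CPM in NT and 4.85, 6.33 and 6.496 CPM in VEC libraries, which overlapped. Summed with its near copy Hist1h2bq, it had 7.597 and 8.518 library-scaled counts in NT and 11.15, 9.963 and 10.76 in VEC. There VEC lay above NT, opposite to Hist1h2bk, which was not in that sum. How reads were split among these copies is not settled, and the fall in Hist1h2bk is uncertain for that reason.

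**Figure D5:**
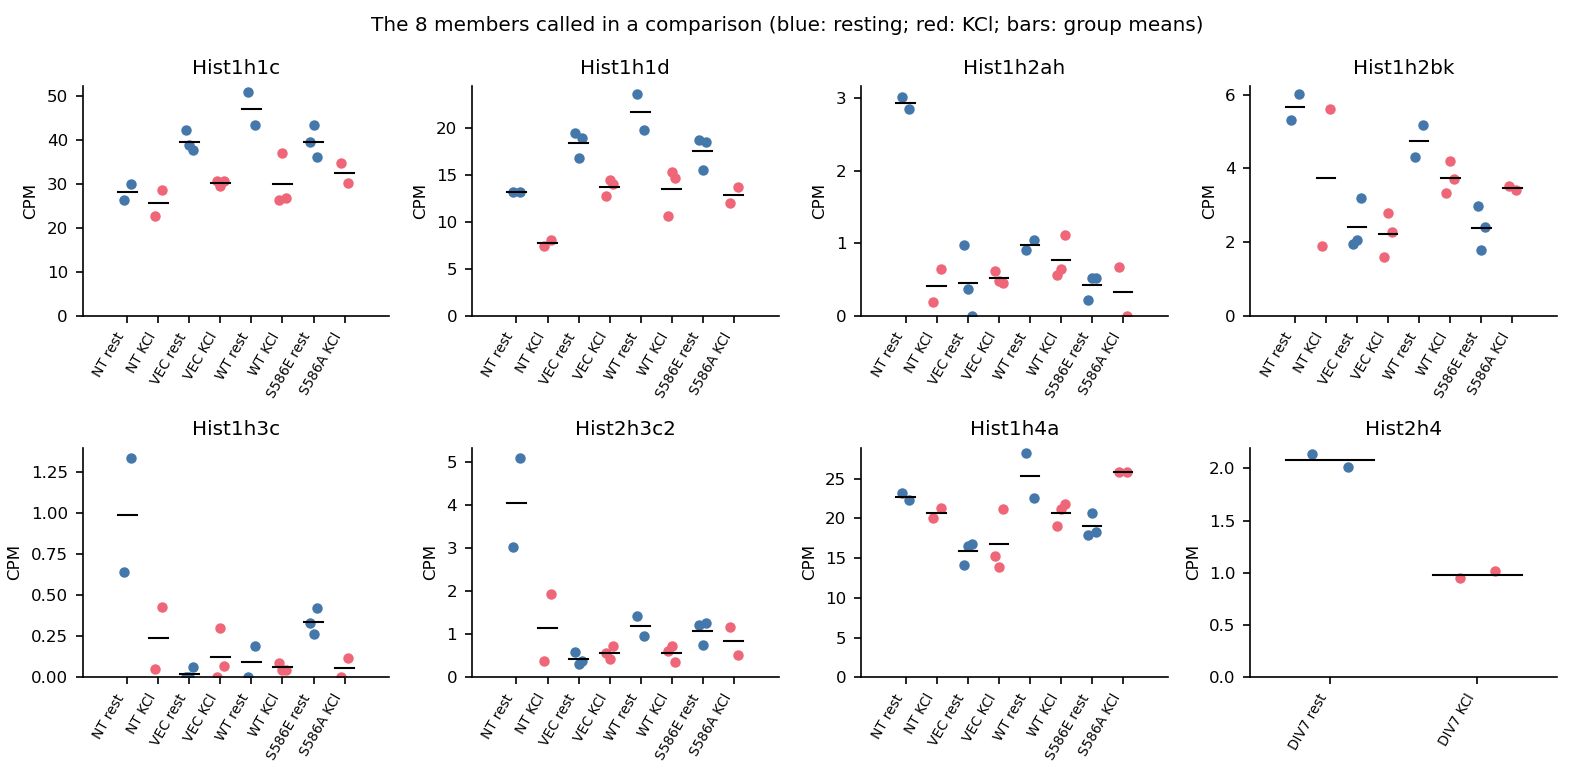
CPM (vertical axis) by group (horizontal axis), 1 point per library and bars at the group means, of the 8 histone genes that passed the test in a comparison; Hist2h4 is shown at DIV7 and the others at DIV18. Hist1h1c at rest and Hist1h1d under KCl stand higher in VEC than in NT libraries, and Hist1h2ah, Hist1h2bk, Hist1h3c, Hist2h3c2 and Hist1h4a stand lower at rest.

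For Hist2h3c2, Hist1h3c and Hist1h2ah the resting NT libraries stood above all other DIV18 libraries, the depolarized NT libraries included. In the NT KCl libraries Hist2h3c2 had 0.379 and 1.92 CPM, Hist1h3c 0.0474 and 0.427 CPM, and Hist1h2ah 0.19 and 0.64 CPM.

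The count of 6 leaned on single libraries. It was 0 without NT resting library 2, 2 without NT resting library 1, 2 without VEC resting library 1, 1 without VEC resting library 2 and 7 without VEC resting library 3. Hist2h3c2 was called in each of these except without NT resting library 2. Leaving out 1 NT library leaves a lone sample, which is then assumed to vary like the other groups. With GC-trend offsets 3 members were called, and with only the 2 groups in the fit 3.

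Taken by class, the 8 H3 genes of at least 1 CPM all had negative log2 fold changes between VEC and NT at rest (median -0.45). With GC-trend offsets the H3 median was -0.24, with 1 of 8 positive. The H4 median was -0.18 (-0.03 with those offsets), the H2A median -0.09, the H2B median 0.15 and the H1 median 0.26, with 3 of 5 H1 genes positive. Over all 62 tested members the median was -0.16, against 0.02 over all genes. It was -0.052 without NT resting library 1, -0.074 without VEC resting library 1, -0.025 without VEC resting library 2 and -0.31 without VEC resting library 3, and -0.026 with GC-trend offsets.

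Markers of dividing cells and of other cell types moved with this comparison. The 10 mitosis markers summed to 20.8 and 38.9 CPM in the 2 NT libraries and to 5.59 to 8.41 CPM in the VEC libraries, with up to 2 of 10 at 0 there, and 3 of 10 fell: Mki67 (log2 fold change -3.73), Cdk1 (-3.20) and Top2a (-3.15). Of the 20 S phase genes 6 fell, among them Rrm2 (-2.12), a subunit of ribonucleotide reductase, and Mcm3 (-1.85), a subunit of the replicative helicase. The list summed to 140 to 188 CPM in NT and 123 to 133 CPM in VEC. Oligodendrocyte lineage markers summed to 197 to 207 CPM in NT and 134 to 152 CPM in VEC, and 4 of 8 fell (Pdgfra, Cspg4, Olig1 and Sox10). Astrocyte markers summed to 1365 to 1609 CPM against 902 to 1251 CPM, and 1 of 7, Slc1a2, fell. Their part in the histone results was not tested.

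Under KCl, 1 histone gene rose without Smarcc2 and none fell (VEC against NT, 62 tested, with 0.726% of all genes called higher and 1.95% lower). With GC-trend offsets the calls over all genes were 177 higher and 275 lower, against 152 and 408. The gene was the linker histone gene Hist1h1d (chromosome 13, 23553262 to 23560686, plus strand; ENSMUSG00000052565.7), with 7.44 and 8.11 CPM in NT and 12.7, 14.5 and 14.1 CPM in VEC libraries. All VEC libraries lay above both NT libraries, with a log2 fold change of 0.82 (SE 0.156, edgeR adjusted p = 0.0105; 0.000234 to 0.1 over 13 alternatives, passing in 11). The call was lost without either NT KCl library.

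At rest Hist1h1d had 13.2 and 13.2 CPM in NT and 19.4, 16.8 and 18.9 CPM in VEC libraries, also without overlap (0.48, edgeR adjusted p = 0.0616). In the addback cultures it stayed above both NT libraries of the same state. Under KCl it had 10.6, 15.3 and 14.7 CPM in WT and 12.01 and 13.77 CPM in S586A libraries. Resting WT libraries had 23.7 and 19.7 CPM, and S586E libraries 18.73, 15.48 and 18.55 CPM. Adding Smarcc2 back thus did not return Hist1h1d to its level in NT cells. By unadjusted p under 0.05, 1 member was higher and 5 lower under KCl (6.97% and 9.58% of all genes), and libraries did not overlap for 3 higher and 13 lower (17.3% and 18.5%). The median log2 fold change of the tested members was -0.20, with H3 at -0.34 and H1 at 0.16 among those of at least 1 CPM. It was -0.33 without NT KCl library 1 and -0.064 without NT KCl library 2. Mitosis markers summed to 8.29 and 26.5 CPM in the NT KCl libraries and 5.73 to 8.00 CPM in the VEC ones, and 0 of the 30 S phase and mitosis genes were called. Astrocyte markers summed to 1278 and 1767 CPM in NT and 739 to 868 CPM in VEC, and 3 of 7 fell: Aqp4, S100b and Slc1a2. Of the 8 oligodendrocyte lineage markers 3 fell (Pdgfra, Olig1 and Olig2), with sums of 131 and 213 CPM in NT and 114 to 133 CPM in VEC. The neuron marker Snap25 and the progenitor marker Eomes also fell. The part of these cell types in the value of Hist1h1d was not tested.

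Adding Smarcc2 back moved no histone gene past the test, while most members stood higher than in VEC cells. These comparisons share the VEC libraries with those above, and their values are given side by side with those, not as a second result. WT against VEC at rest gave 0 of 62 called with edgeR (0.00478% of all genes called higher, 0.00955% lower) and 7 with DESeq2, all higher: Hist1h4a, Hist1h4h, Hist1h4i, Hist1h4k, Hist1h4n, Hist2h2bb and Hist4h4. With unadjusted p under 0.05 as the criterion, 24 members were higher and 0 lower, against 5.87% and 5.19% of all genes. Libraries did not overlap for 26 higher and 1 lower (13.7% and 12.4%).

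By class, 8 of 8 H3 genes (median log2 fold change 0.58), 12 of 12 H4 genes (0.51), 12 of 12 H2A genes (0.43), 5 of 5 H1 genes (0.25) and 11 of 14 H2B genes (0.32) of at least 1 CPM had positive values. The median over the 62 tested members was 0.44. It was 0.27 without WT resting library 1, 0.58 without VEC resting library 3, where 4 members were called, 0.33 with GC-trend offsets and 0.32 with offsets for the trend with transcript length.

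Some other lists stood higher in WT too, with 0 genes called. The S phase genes summed to 145 to 148 CPM in WT and 123 to 133 CPM in VEC at rest, and the microglia markers to 6.03 and 8.92 against 3.799 to 3.824 CPM, with 2 of 6 at 0 in WT and 2 to 3 of 6 at 0 in VEC. Neither pair overlapped. The mitosis markers were positive for 7 of 10 (median 0.46), with overlapping sums. Not all lists stood higher at rest. The neuron markers were positive for 3 of 9 (median -0.064). The oligodendrocyte lineage markers were positive for 5 of 8, but summed to 110 to 137 CPM in WT and 134 to 152 CPM in VEC. Under KCl the S phase sums were 144 to 157 CPM in WT and 138 to 139 CPM in VEC, and 7 of 7 astrocyte markers were positive (median 0.39). Their part in the histone values was not tested.

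The H4 gene Hist4h4, the only member on chromosome 6, had the lowest p, with 55.7 and 41.4 CPM in WT and 29.8, 23.4 and 32.1 CPM in VEC libraries. The groups did not overlap (log2 fold change 0.77, SE 0.138, edgeR adjusted p = 0.0618; 2.24e-07 to 0.357 over 13 alternatives, passing in 6). Hist1h4n had 106 and 86.2 CPM in WT and 54.3, 56.0 and 67.1 CPM in VEC libraries (0.70, edgeR adjusted p = 0.0876), also apart.

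Under KCl the same pair gave 0 members called with edgeR and 0 with DESeq2 (0.00478% of all genes in either direction with edgeR). Under an unadjusted p of 0.05, 14 members were higher and 0 lower (2.19% and 1.8% of all genes), and libraries did not overlap for 14 higher and 0 lower (5.02% and 5.04%). The H3 gene Hist1h3h had the lowest p, with 9.33, 11 and 10.3 CPM in WT and 5.94, 4.57 and 7.10 CPM in VEC libraries (0.80, SE 0.241, edgeR adjusted p = 0.999). The median log2 fold change of the tested members was 0.30.

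The S586E construct, set against VEC at rest, gave 0 members called with edgeR and with DESeq2 (0.0143% of all genes called higher, 0.00478% lower). By unadjusted p under 0.05, 11 members were higher and 0 lower (4.27% and 3.18% of all genes), and libraries did not overlap for 11 higher and 0 lower (5.62% and 5.47%). The median over the tested members was 0.23, with 0.47 for H3 and 0.27 for H4 genes of at least 1 CPM. The lowest p belonged to the H3 gene Hist1h3i, with 34.7, 30.6 and 36.0 CPM in S586E and 18.7, 16.8 and 27.6 CPM in VEC libraries, without overlap (0.69, SE 0.187, edgeR adjusted p = 0.347). Without VEC resting library 3 the median was 0.38. Microglia markers summed to 5.02 to 6.46 CPM in S586E and 3.799 to 3.824 CPM in VEC, and their part was not tested.

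Against WT at rest, S586E gave 0 members called with edgeR (0% of all genes in either direction) and 1 with DESeq2, Hist4h4, lower. With unadjusted p under 0.05 as the criterion, 0 members were higher and 10 lower (6.26% and 6.62% of all genes), and libraries did not overlap for 3 higher and 17 lower (14.9% and 16.4%). Hist4h4 had 31.2, 33.0 and 29.2 CPM in S586E libraries, below the 55.7 and 41.4 CPM of WT (-0.64, SE 0.137, edgeR adjusted p = 0.114). The median was -0.12 and turned to 0.068 without WT resting library 1, the library with the most summed histone counts per library total. It was -0.33 without WT resting library 2. The S phase genes summed to 115 to 135 CPM in S586E and 145 to 148 CPM in WT, and the astrocyte markers to 1157 to 1285 against 883 to 1076 CPM. Their part was not tested.

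The S586A construct was measured under KCl only. Against VEC it gave 0 members called with edgeR (0.00478% of all genes in either direction) and 2 with DESeq2, Hist1h4a and Hist3h2a, higher. Under an unadjusted p of 0.05, 18 members were higher and 0 lower (6.9% and 6.14% of all genes), and libraries did not overlap for 20 higher and 0 lower (15.9% and 16.1%). Hist1h4a had 25.9 and 25.9 CPM in S586A and 15.3, 13.9 and 21.2 CPM in VEC libraries, apart from each other (0.63, SE 0.146, edgeR adjusted p = 0.133). The median of 0.38 was 0.57 without S586A library 1, 0.22 without S586A library 2 and 0.19 with length-trend offsets. The S phase genes summed to 151.5 and 152.1 CPM in S586A and 138 to 139 CPM in VEC, and the astrocyte markers to 876 and 999 against 739 to 868 CPM, with 7 of 7 positive. Their part was not tested.

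Against WT under KCl, S586A gave 0 members called with edgeR and with DESeq2 (0% of all genes in either direction with edgeR). By unadjusted p under 0.05, 1 member was higher and 0 lower (4.2% and 4.51% of all genes), and libraries did not overlap for 4 higher and 1 lower (11.9% and 13.7%), both below the background. The lowest p was again that of Hist1h4a, with 19.0, 21.2 and 21.8 CPM in WT against 25.9 and 25.9 CPM (0.33, SE 0.145, edgeR adjusted p = 0.561). The median of 0.10 was 0.24 without S586A library 1, and turned to -0.068 without S586A library 2 and to -0.081 with length-trend offsets.

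Of the genes that act with the clusters, 16 of 17 listed factors of histone mRNA 3′ end processing and transcription were found in the tables. At DIV7 under KCl, Zfp473, a component of the histone processing machinery, rose (log2 fold change 1.25, edgeR adjusted p = 0.00926), and Hinfp, a transcription factor of H4 genes, fell (-0.39, adjusted p = 0.0162). Of 11 replication-independent variants, H3f3b (0.17) and H2afz (0.26) rose, and of 14 histone chaperones 5 rose: Ubn1 (0.44), Nasp (0.30), Hira (0.29), Nap1l1 (0.28) and Atrx (0.24).

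Between VEC and NT at rest the U7 snRNP subunit Lsm11, needed to cut histone mRNA, fell, with 37.6 and 43.3 CPM in NT and 15.8, 14.2 and 22.0 CPM in VEC libraries (-1.23, edgeR adjusted p = 0.00483). NT and VEC did not overlap. Lsm11 was also lower under KCl (-1.15, adjusted p = 0.0143). It stayed below every NT library in the addback cultures too. WT libraries had 20.5 and 20.2 CPM at rest and 22.0, 18.1 and 31.8 CPM under KCl, where NT had 35.8 and 34.3 CPM. S586E libraries had 26.0, 18.9 and 31.9 CPM, and S586A libraries 19.5 and 25.6 CPM. The stem-loop binding protein gene Slbp had 19.03 and 19.96 CPM in NT and 18.5, 17.3 and 20.7 CPM in VEC, so the groups overlapped. Among the variants H2afx, whose own mRNA holds the stem-loop letters, fell (-0.46, adjusted p = 0.0334) and the linker variant H1f0 rose (0.31, adjusted p = 0.0396). Among the chaperones Atrx rose (0.29). In the other 11 comparisons none of these factors, variants or chaperones was called.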

How the data were processed

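The authors' deposited tables give, per the file headers, a length, effective length, estimated count and TPM for each transcript; the submitters' processing notes name FastQC, cutadapt and kallisto. The genome build and annotation used are not given in the sources used here. Of 142552 transcripts, 141429 (99.2%) were matched to GENCODE M21, and the rest, at most 0.467% of a library's counts, were left out. Each gene's estimated counts were added up over its transcripts and rounded. The deposited effective lengths served for length offsets and fragment lengths, and the deposited TPM, summed per gene, for levels between genes.

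Tests used edgeR 4.0.16 in R 4.3.3 (quasi-likelihood, two-sided, TMM, filterByExpr, Benjamini-Hochberg over all genes, calls at adjusted p below 0.05 and any fold). The 4 DIV7 libraries were fitted alone (19822 genes; 2 residual degrees of freedom) and the 20 DIV18 libraries in 8 groups (20940 genes; 12). Of the 67 members, 33 and 62 passed the low-count filter, 4 passed neither, and Hist1h2ba had 0 counts in all 24 libraries. In all, 14 comparisons were made, and the tests were checked on simulated data. The alternatives tried were DESeq2 1.42.0, median-of-ratios size factors, the replicate number as a block, no low-count filter, length offsets, a fit of only the groups compared, and leaving out each library. Offsets for trends with GC content and transcript length were chosen after seeing the data. The members and all lists were chosen with earlier results of these data known.

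Members with values are those called in any comparison, the 8 highest by CPM per library type, the highest of each class and the lowest p of each comparison; Hist1h4f, Hist1h4i and Slbp were named after their values were seen. Same-numbered libraries deviated together most in S586E against VEC at rest (r = 0.293, 0.103 and 0.291), WT against VEC under KCl (0.106, 0.114 and 0.236) and VEC KCl against rest (0.128, 0.0689 and 0.238). In these the block changed no call.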

Additional observations from a re-analysis of the deposited data

Results flagged for a closer look

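Hist2h4, the H4 gene that fell under KCl at DIV7, did not keep one direction at DIV18. In NT cells it had 24.3 and 26.1 CPM at rest and 26.8 and 27.0 CPM under KCl, every KCl library above every resting one (log2 ratio of the means 0.097). In VEC cells it had 27.4, 26.8 and 25.8 CPM at rest and 22.4, 19.6 and 25.4 CPM under KCl, and in WT cells 39.9 and 29.3 CPM at rest and 22.3, 24.4 and 26.4 CPM under KCl, every KCl library below every resting one in both. The difference between the VEC and NT responses was -0.35 (SE 0.191, edgeR unadjusted p = 0.086, adjusted p = 0.615), and that between the WT and NT responses was not tested.

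Counts also lay in genes with histone cluster symbols that are not protein coding. The processed pseudogene Hist1h2al (chromosome 13, 51202727 to 51203065; ENSMUSG00000091383.2) reached 863 estimated counts in a DIV18 library. It had 22.3 to 38.6 library-scaled counts at DIV18 and 0 to 0.0901 at DIV7. The processed pseudogene Hist3h2bb-ps (chromosome 11, 58954048 to 58954512), which lies between Hist3h2ba and Hist3h2a, reached 13 estimated counts in a DIV7 library and 18 in a DIV18 library.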

How the results depend on the processing

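Without the low-count filter, counts of members called were 6 at DIV7 (against 1), and at DIV18 3, 9 and 13 for the KCl responses of NT, VEC and WT cells (against 0), 13 and 5 for VEC against NT at rest and under KCl (against 6 and 1), 15 and 2 for WT against VEC at rest and under KCl, 2 for S586E against WT, 1 for S586A against WT, 3 for S586E against VEC, 8 for S586A against VEC, and 3 and 1 for the differences between VEC and NT and between WT and VEC responses (all against 0). DESeq2 gave 0 at DIV7, 6 for the WT response, 7 for WT against VEC at rest, 1 for S586E against WT and 2 for S586A against VEC. At DIV7, median-of-ratios size factors, length offsets, GC-trend offsets and length-trend offsets gave 2 each. For VEC against NT at rest, the GC-trend offsets and the fit of only the groups compared gave 3 each; for WT against VEC at rest the GC-trend offsets gave 1. The cause was not tested.

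With the replicate number as a block, the counts were 4 at DIV7, 2 for the WT response, 10 and 2 for VEC against NT at rest and under KCl, and 6 for WT against VEC at rest. The block changed no other count, and the labels do not say that a shared number marks one embryo, day or batch. In the VEC response, same-numbered libraries correlated at 0.128, 0.0689 and 0.238, and in WT against VEC at rest at 0.107 and 0.0531.

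Leaving out each library in turn gave 0 to 7 calls for VEC against NT at rest, 0 to 1 under KCl, 0 to 1 for the WT response, 0 to 4 for WT against VEC at rest and 0 to 1 for S586A against VEC. The log2 fold change of Hist1h1d for VEC against NT under KCl stayed between 0.76 and 0.88.

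Median log2 fold changes of the members kept their sign except in 3 comparisons. S586E against WT ran from -0.33 to 0.068 over single libraries left out, positive without WT resting library 1. S586A against WT turned to -0.081 with length-trend offsets and to -0.068 without S586A library 2. The difference between VEC and NT responses (0.04) was -0.017 with GC-trend offsets and ran from -0.10 to 0.18 over single libraries left out. The summed counts of DIV7 gave a log2 ratio of KCl to rest of -0.0042 in library-scaled counts and 0.036 after TMM scaling. Of the medians under an alternative, 153 moved by less than the spread between replicates, 31 moved by more and 9 changed sign. With 2 or 3 libraries a group, and few counts for many members, small changes were not detectable at this depth.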
